A study of Mus musculus with 8 samples.

Results

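The 9 genes described here are Nfe2l2, which encodes the transcription factor NRF2, Keap1, which encodes its inhibitor, and 7 genes that NRF2 is known to induce: Slc7a11, Gclc, Gclm, Srxn1, Txnrd1, Nqo1 and Hmox1. They were chosen by symbol, and an array probe was assigned to a gene where the accession printed for the probe belongs to that gene in RefSeq. All 9 were found, with 10 probes in all (2 for Hmox1, 1 for each other gene), out of 20284 genes named in this way on the array. All 9 passed the filter on dim probes and were among the 17737 genes tested.

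Total RNA of whole skin was measured on 8 one-colour arrays, with 4 samples from mice labelled DTG and 4 from mice labelled Control. The series title speaks of Musashi1 gene overexpression in mouse skin. The abbreviation DTG, the strain, the age, the transgene's promoter and the alleles of the Control mice are not given in the sources used here. The comparison asks how transcript levels in DTG skin differ from those in Control skin.

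NRF2 is a basic leucine zipper factor that pairs with small MAF proteins and binds antioxidant response elements in DNA. In unstressed cells KEAP1 binds NRF2 and presents it to a cullin-based ubiquitin ligase for degradation. Reactive cysteines of KEAP1 sense electrophiles and oxidants, and their modification lets NRF2 accumulate. Its targets import cystine, make glutathione, reduce thioredoxin and peroxiredoxins, and detoxify quinones and heme. In epidermis the pathway is known for cytoprotection and, when NRF2 is overactive in mice, for changes of the cornified layer.

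Since NRF2 acts through DNA elements, the 250 bases before each annotated start were read from RefSeq (GRCm38.p6). There 7 of the 9 genes had an entry, with 9 starts in all. Gclc and Hmox1 had no entry and were not searched. The letters TGACNNNGC, a form of the core of the antioxidant response element, were searched on both strands. So were TGANTCA, the AP-1 element, and TGANTCAGC, which is an AP-1 element followed by the GC of a MAF recognition site. No other form was counted as the antioxidant response element, so a window without TGACNNNGC is not shown to lack that element. TGACNNNGC was present in 3 of these 9 windows, those of Gclm, Nfe2l2 and the second of the 3 starts of Txnrd1, against 10.16% of all 32851 promoters in the table. TGANTCA occurred in the window of 1 gene, Srxn1, at 2 places, of which the one nearer the start also matched TGANTCAGC. Of all promoters, 6.75% held TGANTCA and 1.02% held TGANTCAGC. The 4 windows with a match are printed because they show these letters in genes of the pathway, with the matches in capitals, 5′ to 3′ on the gene's strand.
Srxn1, chr2:152105274-152105523, plus strand: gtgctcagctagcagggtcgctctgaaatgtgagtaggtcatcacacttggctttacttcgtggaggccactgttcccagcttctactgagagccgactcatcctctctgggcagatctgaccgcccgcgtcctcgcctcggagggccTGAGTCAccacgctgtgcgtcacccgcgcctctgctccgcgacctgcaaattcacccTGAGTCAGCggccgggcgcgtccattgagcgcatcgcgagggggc
Gclm, chr3:122245307-122245556, plus strand: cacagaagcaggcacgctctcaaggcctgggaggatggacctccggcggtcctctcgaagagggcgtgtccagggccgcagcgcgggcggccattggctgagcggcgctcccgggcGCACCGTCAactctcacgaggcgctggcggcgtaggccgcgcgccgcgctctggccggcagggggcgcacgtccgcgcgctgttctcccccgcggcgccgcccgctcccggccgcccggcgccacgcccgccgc
Txnrd1, second start, chr10:82858956-82859205, plus strand: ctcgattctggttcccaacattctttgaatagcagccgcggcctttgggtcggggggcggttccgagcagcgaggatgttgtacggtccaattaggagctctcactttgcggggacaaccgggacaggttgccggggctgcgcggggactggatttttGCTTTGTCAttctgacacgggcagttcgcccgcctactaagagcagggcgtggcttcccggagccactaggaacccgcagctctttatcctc
Nfe2l2, chr2:75704664-75704913, minus strand: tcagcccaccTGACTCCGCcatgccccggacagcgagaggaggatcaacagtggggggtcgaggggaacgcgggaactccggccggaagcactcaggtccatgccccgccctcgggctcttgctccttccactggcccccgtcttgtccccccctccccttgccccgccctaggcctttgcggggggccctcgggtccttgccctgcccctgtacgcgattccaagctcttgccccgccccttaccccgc
The match in Gclm lay 134 to 126 bases before the start. The windows of Slc7a11 and Nqo1, the 2 genes with the largest changes below, held none of the 3 motifs, nor did that of Keap1. A match is a description of these letters, and its absence refers to this window alone.

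Of the 9 genes, 5 were higher in DTG skin, 1 was lower and 3 did not pass the test (limma, adjusted p under 0.05 over all 17737 genes). Slc7a11, Nqo1, Gclm, Gclc and Srxn1 rose, Keap1 fell, and Hmox1, Txnrd1 and Nfe2l2 did not pass. Calls were common on these arrays: 32.4% of all genes were called, 11.1% as higher and 21.3% as lower. The median log2 fold change (DTG minus Control) of the 9 genes was 0.53, beside -0.15 for all genes tested. The groups did not overlap in 7 of the 9 genes, 6 of them higher and 1 lower, while 34.5% of all genes had groups that did not overlap, 11.4% higher and 23.1% lower.

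The direction of calls over all genes depends on how arrays are scaled. Levels are given as log2 signal minus the array's 75th percentile, and on this scale 65.6% of called genes were lower in DTG skin, with no scaling it was 41.7%, and when arrays were scaled on spike-in spots 7.51%. The median change of all genes on the spike-in scale was 0.32. On that scale 8 of the 9 genes were called higher and none lower (limma adjusted p over all genes), and Keap1 was the gene without a call, while 36.5% of all genes were called there, 33.8% as higher and 2.74% as lower.

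The arrays of the 2 groups differed in quality measures. Spots well above background made up 68.8% to 71.6% of the DTG arrays and 79.5% to 85.1% of the Control arrays. The negative-control spots averaged 4.46 in DTG and 2.85 in Control (log2 signal). All arrays lay on 1 slide, with the DTG arrays in a row of their own and the Control arrays in another, so the group and its row on the slide cannot be told apart. Msi1, the gene for Musashi1, had levels of 3.85 to 4.16 on 3 DTG arrays (its spots on DTG 1 were marked as outliers) and of -5.92 to -1.48 on the 4 Control arrays. All samples are labelled male, but Xist, the RNA of the inactive X chromosome, was high on DTG 1, 3 and 4 and Control 2 and 4, and low on DTG 2 and Control 1 and 3. Within the 3 arrays of low Xist, of which 1 is DTG and is assumed to vary like the rest, 1 of the 9 genes was called, Slc7a11, and the changes of Nqo1, Gclm, Gclc and Srxn1 were 1.46, 0.85, 0.40 and 0.33 (limma adjusted p 0.0558 to 0.294). Within the 5 arrays of high Xist these 5 genes were called. Each of the 10 probes of the 9 genes was well above background on all 8 arrays, and none was saturated or flagged as an outlier. Whether the array measures contributed to the changes was not tested.

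Nfe2l2, the gene for NRF2 itself, had levels of 2.53, 2.38, 2.43 and 2.46 in DTG skin and of 2.50, 2.01, 2.24 and 2.13 in Control skin. The groups overlapped, because Control 1 lay among the DTG arrays. The log2 fold change was 0.23 (SE 0.12, 95% interval -0.04 to 0.50, limma adjusted p = 0.162). It passed in 4 of 23 alternative settings: without Control 1 (0.32, adjusted p = 0.0364), with quantile scaling (0.30, adjusted p = 0.0344), with no scaling (0.35, adjusted p = 0.0259) and on the spike-in scale (0.70, adjusted p = 0.00296). The smallest change was 0.01, within the 3 arrays of low Xist, which hold 1 DTG array.

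Keap1, which encodes the adaptor that holds NRF2 down, had levels of 1.61, 1.51, 1.84 and 1.86 in DTG skin and of 2.30, 2.36, 2.29 and 2.16 in Control skin. Every DTG array was below every Control array. Keap1 fell by 0.57 on the log2 scale (SE 0.11, 1.49-fold lower, limma adjusted p = 0.00558; exact two-sided permutation p = 0.0286, the smallest possible with 4 arrays against 4). The call was lost on the spike-in scale, where the change was -0.10 (adjusted p = 0.578), within the 5 arrays of high Xist, where it was -0.49 (adjusted p = 0.0715), and within the 3 of low Xist, where it was -0.79 (adjusted p = 0.09). After the median of all genes was subtracted, Keap1 read -0.43.

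Slc7a11, the cystine importer subunit that supplies cysteine for glutathione, showed the largest change of the 9. Its levels were -1.66, -0.86, -2.56 and -1.41 in DTG skin and -3.15, -3.77, -3.14 and -3.65 in Control skin. All DTG arrays were above all Control arrays, but the DTG arrays were uneven, with DTG 2 highest and DTG 3 lowest. Slc7a11 rose by 1.81 (SE 0.34, 3.50-fold, limma adjusted p = 0.00529), and its change ranged from 1.55 to 2.12 when 1 array was left out. Its processed signal was 698.5 to 2337 in DTG and 300.8 to 393.3 in Control, against lowest signals well above background of 83.7 to 112.0 on the DTG arrays and 22.9 to 39.0 on the Control arrays.

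Gclc and Gclm encode the catalytic and the modifier subunit of glutamate-cysteine ligase, which carries out the first step of glutathione synthesis. Gclc levels were 1.73, 1.45, 1.69 and 1.61 in DTG skin and 1.09, 0.99, 1.01 and 0.99 in Control skin. Gclm levels were -0.55, -0.40, -0.44 and -0.37 in DTG skin and -1.36, -1.26, -1.13 and -1.39 in Control skin. For both subunits the groups were well apart and the arrays of each group lay close together. Gclc rose by 0.60 (SE 0.09, 1.52-fold, limma adjusted p = 0.00219). Gclm rose by 0.85 (SE 0.09, 1.80-fold, limma adjusted p = 0.000534), the smallest p of the 9 genes and rank 361 among all genes tested.

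Srxn1 encodes sulfiredoxin, which restores overoxidised peroxiredoxins. Its levels were 3.03, 2.98, 2.95 and 2.81 in DTG skin and 2.72, 2.18, 2.58 and 2.17 in Control skin. The groups did not overlap, although Control 1 came within reach of DTG 4. Srxn1 rose by 0.53 (SE 0.14, 1.44-fold, limma adjusted p = 0.0241). This call was lost when DTG 1, DTG 2, Control 2 or Control 4 was left out (adjusted p 0.0542 to 0.0583), with changes of 0.45 to 0.52.

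Txnrd1, the cytosolic thioredoxin reductase, had levels of 2.15, 2.25, 2.08 and 2.10 in DTG skin and of 2.03, 1.72, 1.98 and 1.80 in Control skin. Every DTG array was above every Control array, by a small margin. The log2 fold change was 0.26 (SE 0.10, 95% interval 0.04 to 0.49) and did not pass over all genes (limma adjusted p = 0.075), while the exact two-sided permutation p of this gene alone was 0.0286. It passed in 6 of 23 alternative settings, among them quantile scaling (0.34, adjusted p = 0.019) and the Xist class as a covariate (0.31, adjusted p = 0.024).

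Nqo1 encodes a quinone reductase and is a widely used readout of NRF2 activity. Its levels were 0.55, 0.65, -0.09 and 0.39 in DTG skin and -0.71, -0.94, -0.91 and -0.80 in Control skin. The groups were clearly separate, and DTG 3 was the lowest DTG array, as it was for Slc7a11. Nqo1 rose by 1.22 (SE 0.16, 2.32-fold, limma adjusted p = 0.00124).

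Hmox1, the inducible heme oxygenase, had levels of 1.67, 1.24, 1.37 and 1.24 in DTG skin and of 0.81, 1.37, 1.18 and 0.83 in Control skin on its brighter probe. The groups overlapped, since Control 2 lay above DTG 2 and DTG 4 and level with DTG 3. The change was 0.33 (SE 0.16, 95% interval -0.03 to 0.69, limma adjusted p = 0.145). The dimmer probe gave -1.24, -1.83, -2.58 and -2.12 in DTG skin and -2.90, -2.11, -2.61 and -2.09 in Control skin, again with overlap, and a change of 0.49 (SE 0.30, adjusted p over all probes 0.238). Hmox1 passed in 1 of 23 alternative settings, the spike-in scale (0.80, adjusted p = 0.00978).

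**Figure D1:**
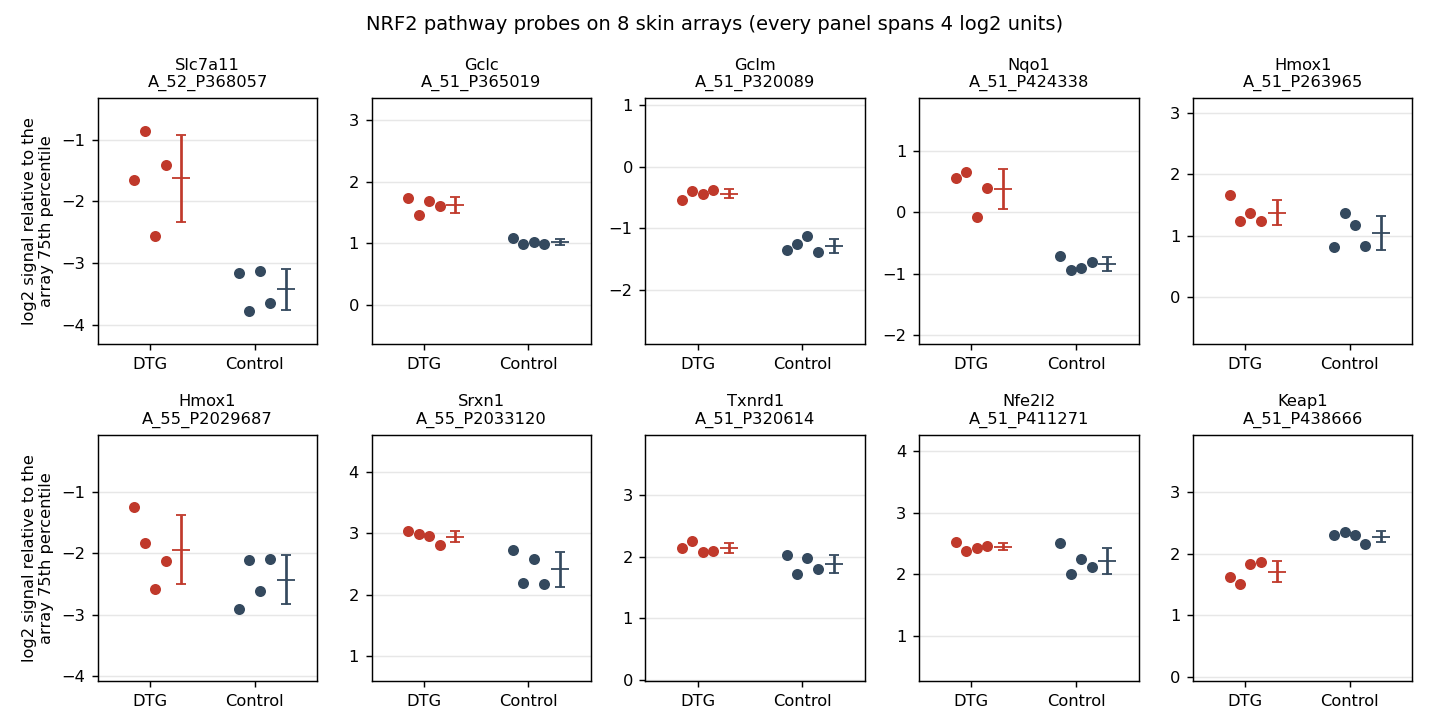
Level (vertical axis, log2 signal after subtracting the 75th percentile) for the 10 probes of the 9 genes, with DTG arrays in red and Control arrays in blue-grey, points for arrays 1 to 4 of each group and bars for the mean ± SD (n = 4). Each panel spans the same range of 4 log2 units, so differences can be compared between panels. Slc7a11, with a change of 1.81, and Nqo1, with 1.22, show the largest differences between group means. Keap1 lies lower in DTG, and the groups overlap for both Hmox1 probes and for Nfe2l2.

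Because Nfe2l2 was measured on the same arrays, each gene's change was also taken relative to that of Nfe2l2 within the array, a comparison chosen after the values were seen and one that a shift of a whole array cannot alter. Slc7a11, Nqo1, Gclm, Gclc and Srxn1 exceeded the change of Nfe2l2 by 1.58, 0.99, 0.62, 0.38 and 0.30 on the log2 scale (exact two-sided permutation p = 0.0286 each, adjusted over 8 comparisons 0.0381). Keap1 changed by -0.80 relative to Nfe2l2, with the same p-values. Txnrd1 differed from it by 0.03 and Hmox1 by 0.10, without passing (exact permutation p = 0.657 and 0.743). These differences are the same under every scaling that shifts an array by 1 number, such as the 75th percentile, no scaling and the spike-in spots.

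**Figure D2:**
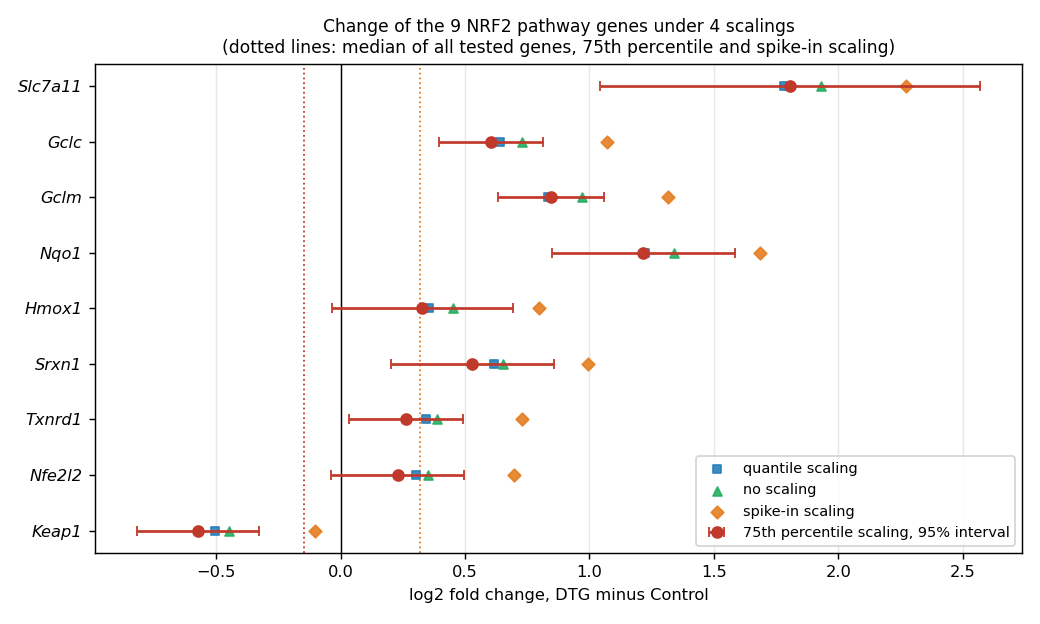
Log2 fold change, DTG minus Control (horizontal axis), for the 9 genes, with the 95% interval of the limma fit for 75th percentile scaling (red circles) and the values under quantile scaling, no scaling and spike-in scaling. Dotted lines mark the median of all tested genes, -0.15 with 75th percentile scaling and 0.32 on the spike-in scale; on both of these scales Keap1 is below the line of its own scale and the other 8 genes are above it.

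Around the 9 genes, 11 lists of related genes were read from the same fit. Of 104 tested members, 18 rose, 21 fell and 65 did not pass, so 37.5% were called, beside 32.4% of all genes. Their median change was -0.15, as for all genes. On the spike-in scale 46 of the 104 were called higher and 2 lower, beside 33.8% of all genes called higher and 2.74% lower. The directions of single list members below therefore hold for the scale used unless stated.

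Among 14 regulators of NRF2, 4 rose, 1 fell and 9 did not pass, with a median change of 0.18. This is 35.7% called, beside 32.4% of all genes. Sqstm1, the autophagy receptor that competes with NRF2 for KEAP1 and is itself an NRF2 target, rose by 1.46 (SE 0.23, limma adjusted p = 0.00268). Its levels were 2.61, 2.41, 1.92 and 2.11 in DTG skin and 0.17, 0.93, 0.96 and 1.13 in Control skin, with no overlap. Maff, a small MAF partner, rose by 0.84, Nfe2l1, a relative of NRF2, by 0.55, and Pgam5, a mitochondrial phosphatase that binds KEAP1, by 0.54. Btrc, a substrate adaptor of another ubiquitin ligase for NRF2, fell by 0.75, but its dimmer probe read 0.05. The repressor gene Bach1 and the ligase genes Cul3 and Rbx1 read 0.02, 0.12 and 0.09 and did not pass; they and the other uncalled list members named below were chosen after their values were seen.

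Genes of glutathione synthesis and use went both ways: of 13, 4 rose, 2 fell and 7 did not pass. This is 46.2% called, beside 32.4% of all genes. Gpx2, the epithelial glutathione peroxidase and a known NRF2 target, rose by 3.38 (SE 0.10, 10.4-fold, limma adjusted p = 8.9e-07), rank 2 by p among all genes tested. Its levels were 2.92, 2.75, 2.97 and 2.75 in DTG skin and -0.54, -0.42, -0.49 and -0.66 in Control skin, and the arrays within a group nearly coincided. Gss, glutathione synthetase, rose by 0.59, Glrx, glutaredoxin, by 0.68, and Slc3a2, the partner chain of Slc7a11, by 0.47. Oplah, which recovers glutamate from oxoproline, fell by 0.89, and Gpx4, the lipid hydroperoxide peroxidase, by 0.36. Gsr, glutathione reductase, read 0.24 and did not pass.

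The glutathione transferases, which attach glutathione to electrophiles, went both ways. Of 12 genes, 2 rose, 4 fell and 6 did not pass (50% called, beside 32.4% of all genes). Gsta1 and Gsta2 rose by 1.06 (SE 0.19) and 1.02 (SE 0.19); they are near-identical copies, so their probes may not read them apart. Gsta3 fell by 1.01 (SE 0.21), Gstt1 by 0.78, Gstm1 by 0.45 and Gstm5 by 0.27. The Gstm1 call rests on its brighter probe, since the dimmer one read 0.79, and on the spike-in scale Gstm1 read 0.02.

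Of 10 tested genes for quinone, carbonyl and drug detoxification, 1 rose, 4 fell and 5 did not pass. This is 50% called, beside 32.4% of all genes. Aldh3a1, an aldehyde dehydrogenase, fell by 2.26 (SE 0.16, limma adjusted p = 0.000175), with -2.35 on its other probe and -1.80 on the spike-in scale, where it was still called. Cbr3, a carbonyl reductase, fell by 0.65, Ephx1, the microsomal epoxide hydrolase, by 0.52 (0.01 on its dimmer probe) and Ptgr1, a prostaglandin reductase, by 0.28, while the aldo-keto reductase Akr1b8 rose by 0.58. Of 5 tested export pump genes, Abcc3 fell by 0.73 and Abcc5 by 0.48, and 3 did not pass (40% called). On the spike-in scale Cbr3, Ephx1, Abcc3 and Abcc5 read -0.19, -0.05, -0.26 and -0.01, without a call. There 3 detoxification genes were called higher and 1 lower, and no export pump gene was called. Of all genes, 33.8% were called higher on that scale and 2.74% lower.

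Of 14 thioredoxin and peroxiredoxin genes, 21.4% were called, of 9 genes of NADPH supply 33.3% and of 10 genes of heme and iron handling 10%, beside 32.4% of all genes. On the spike-in scale 7, 4 and 1 of them were called higher and none of these was called lower. Of all genes, 33.8% were called higher on that scale and 2.74% lower. Sesn2, a stress-induced sestrin, rose by 0.71 among the thioredoxin and peroxiredoxin genes. Txnrd2, the mitochondrial thioredoxin reductase, and Txnip, a thioredoxin-binding protein, fell by 0.44 and 0.51, but they were called in only 11 and 9 of 23 alternative settings; on the spike-in scale their changes were 0.03 and -0.04. The peroxiredoxin substrates of sulfiredoxin, Prdx1 to Prdx4, ranged from -0.30 to 0.25 and did not pass. In NADPH supply, Pgd of the pentose phosphate pathway rose by 0.36, while Pgls, the preceding enzyme, and Me1, malic enzyme, fell by 0.88 and 0.53; Me1 read 0.22 on 1 of its 3 probes. In heme and iron handling, Fech, ferrochelatase, fell by 0.47 (0.00 on the spike-in scale), and the ferritin genes Fth1 and Ftl1 read -0.16 and -0.24 without a call. None of the 4 genes for superoxide and peroxide removal passed (limma over all genes; every unadjusted 95% interval included 0, and the smallest adjusted p was 0.118, for Sod1), while on the spike-in scale 2 of them were called higher.

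**Figure D3:**
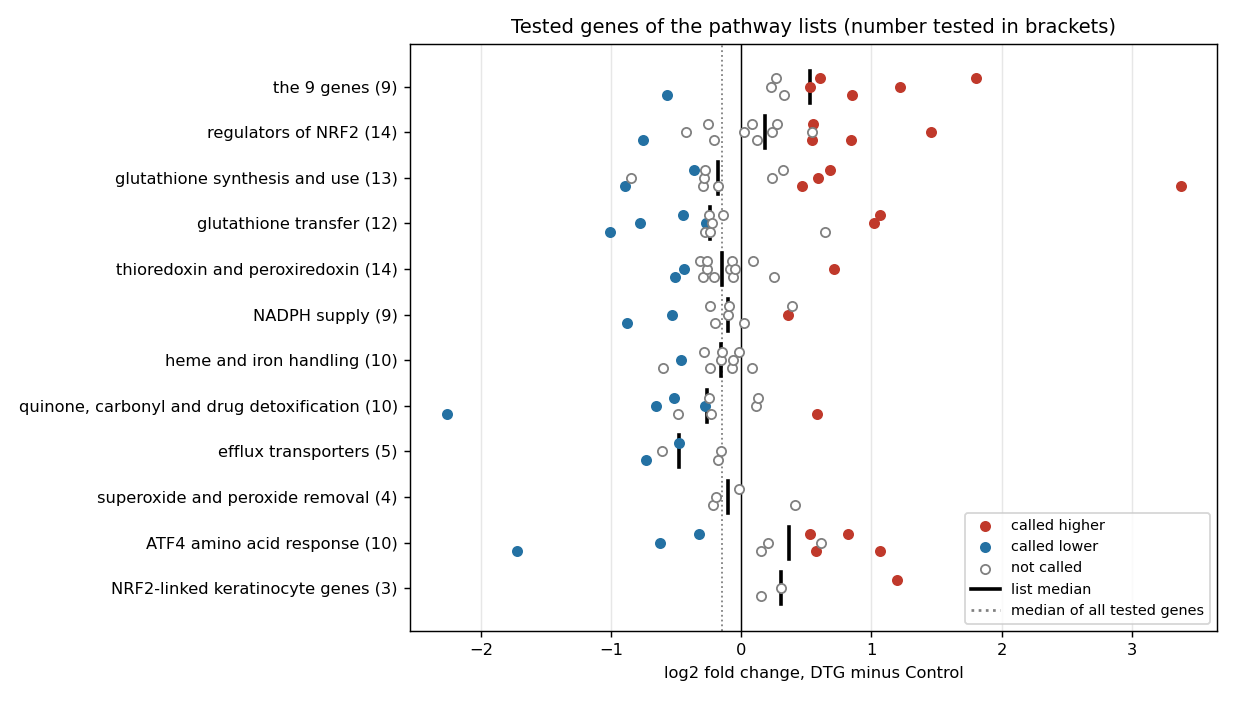
Log2 fold change, DTG minus Control (horizontal axis), of each tested gene of the 9 and of the 11 lists, with the number tested in brackets, filled red where called higher, filled blue where called lower and open where not called; black bars are list medians and the dotted line is the median of all genes, -0.15. The 9 genes have a median of 0.53, Gpx2 stands far to the right at 3.38 and Aldh3a1 far to the left at -2.26.

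Markers of the cell types in skin were read beside these values, since in whole tissue fewer cells of a type and less RNA per cell cannot be told apart. All 8 keratinocyte and all 6 fibroblast markers were well above background on all 8 arrays. The counts below stand beside 32.4% of all genes called, 21.3% as lower and 11.1% as higher. Called shares were 62.5% for keratinocyte, 75% for T cell, 66.7% for adipocyte and 33.3% for fibroblast markers. They were 20% for skeletal muscle, 14.3% for macrophage and 20% for neutrophil markers. Of the keratinocyte markers 5 fell, among them Krt5 by 0.59 and Krt1 by 0.72, while Krt14 read -0.22 without a call, and their summed level was 6.78 to 7.05 in DTG and 7.10 to 7.48 in Control. Of 4 tested T cell markers 3 fell, with summed levels of 1.62 to 2.02 in DTG and 2.47 to 2.72 in Control. Of 7 tested macrophage markers 1 rose, Mrc1 by 0.39, and the summed level overlapped, at 5.16 to 5.81 in DTG and 4.99 to 5.99 in Control. Of 5 tested neutrophil markers 1 rose, Mpo by 1.31, with overlapping sums. Of 6 adipocyte markers 4 fell, and their summed level was 5.33 to 5.46 in DTG and 5.13 to 5.84 in Control. Adipoq, an adipocyte marker, had a value on only 3 of the 4 Control arrays, so the sum of the remaining Control array lacks it. The adipocyte sums therefore do not settle whether the groups overlap. Of 6 fibroblast markers 2 fell, with overlapping sums. Of 5 skeletal muscle markers 1 fell, and their summed level was 6.41 to 6.49 in DTG and 6.60 to 6.81 in Control, without overlap. None of 6 tested erythroid and 5 endothelial markers was called by limma, and the unadjusted 95% interval of each included 0. All marker counts and sums are on the 75th percentile scale, where the median change of all genes was -0.15. On the spike-in scale that median was 0.32, and marker sums were not computed there. The part of the marker shifts in the changes of the 9 genes was not tested.

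The genes whose levels were most like those of the 9 over the 8 arrays had Pearson correlations of 0.964 to 0.996 (3 genes each, among 17288 genes with all values). Nearest to Nqo1 were Rad17, Tubb2a-ps2 and Traf6 (0.992 to 0.994), to Gclm Ttc1, Secisbp2 and Dnajc16 (0.989 to 0.992), to Slc7a11 Tex30, Terb1 and Tab3 (0.978 to 0.984), and to Keap1 Ndufv3, Prmt7 and Tars2 (0.995 to 0.996). Nearest to Srxn1 were Fhl2, Lce3b and Sprr2g (0.994 to 0.996), and to Txnrd1 Pglyrp4, Mpp7 and Grhl3 (0.987 to 0.995). Nearest to Gclc were Mkks, Agrp and Fgfbp3 (0.987 to 0.989), to Hmox1 Fbxl21, Tmem198b and Ten1 (0.964 to 0.973), and to Nfe2l2 Kansl3, Psmc5 and Fastkd5 (0.989 to 0.993). None of these genes was on the lists above. The 8 points of each correlation share their arrays and scaling and fall into 2 groups, correlations within a group were not computed, and the values are descriptions.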

How the data were processed

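Total RNA of whole mouse skin was hybridised to 8 one-colour Agilent arrays, 4 DTG and 4 Control, grouped by the labels. The scanner files hold intensity values that the authors deposited. Per the file headers these were made with Agilent Feature Extraction 11.5.1.1 (10.7 per the submitters' processing notes) with probe positions on mm9, and the software had already subtracted background from the processed intensity. The deposited value table held the mean processed intensity of each probe (99.6% of 350888 values within a relative tolerance of 0.001) and served as an alternative.

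Outlier-marked spots were left out (0.55% of probe values), log2 values were averaged over the spots of a probe, and the 75th percentile of the array was subtracted. Of 55681 probes, 26762 (48.1%) were named through their accession in RefSeq. Probes had to be well above background on 3 or more of a group's 4 arrays, and the brightest kept probe stood for a gene. Groups were compared with limma 3.58.1 (R 4.3.3) over 17737 genes, two-sided, with Benjamini-Hochberg adjustment and a threshold of 0.05. The median SE was 0.138, and the number of arrays limits the precision. Single values had an exact permutation test over 70 splits.

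The genes and lists were chosen with earlier results of these data known. Named are the 9 genes, from each list the called members with the 4 smallest adjusted p, others where a count of 5 or fewer needs them, and the 3 genes most correlated with each of the 9 genes. Each sample has its own identifier in its title, but the labels do not say what it identifies, so p-values measure only how far these samples spread, part of which may be technical. Alternatives were the scaling (quantile, median, none, spike-in spots), normexp background correction (offset 50, on median foreground and background intensity), the value table, filters, averaged probes, outlier spots kept, a trended robust variance, Xist class, slide column as a block, and leaving out each array. Promoter positions are those of the GRCm38.p6 RefSeq table and were not set against the mm9 positions.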

Additional observations from a re-analysis of the deposited data

Results flagged for a closer look

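Groups of 4 arrays were formed from each probe of the 9 genes and from the brightest probe of some list genes. These were the called list genes with the 4 smallest adjusted p of each list. In the 79 groups the highest or lowest array was set against the others by Dixon's criterion, which chance exceeds in about 1 of 20 groups. It was exceeded in 4 groups, close to that rate, all of DTG skin and none of them from the 9 genes. Slc3a2, the partner chain of the cystine importer, had a level of 3.34 on DTG 1, above 3.07 to 3.10 on the other DTG arrays. Aldh3a1 had 0.75 on DTG 4, above 0.26 to 0.34 on the others. Ephx1 had 1.22 on DTG 1, below 1.54 to 1.59 on the others. Abcc3 had 0.68 on DTG 3, above 0.55 to 0.57 on the others.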

How the results depend on the processing

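Under all 23 alternatives each of the 9 genes kept its direction, although Nfe2l2 read only 0.01 within the 3 arrays of low Xist. In the 22 that keep more than 1 DTG array, Slc7a11 (1.55 to 2.27), Nqo1, Gclm and Gclc were called throughout, Keap1 in 20, Srxn1 in 18, Txnrd1 in 6, Nfe2l2 in 4 and Hmox1 in 1. Of the 9 genes, 8 were called with quantile scaling, no scaling and the spike-in scale, and 7 with normexp. Within the 3 arrays of low Xist, 249 genes, 1 of the 9 and 3 of the 104 list members were called; within the 5 of high Xist, 2593 genes and 23 list members were called. Both leave fewer arrays. With no scaling 3832 genes were called; the cause was not tested. Leaving out 1 array gave 4067 to 5159 genes, 5 to 7 of the 9 genes and 33 to 38 list members. Samples that share a replicate number share a slide column, but their deviations from the group means correlated at -0.0617, -0.321, -0.139 and 0.329. Only DTG 4 and Control 4 correlated best with the sample of their own number, so the numbers were not taken as pairs. With the slide column as a replicate block, 4341 genes, 6 of the 9 genes and 33 list members were called. Of called list members, 53.8% were lower on the scale used, 41.5% with quantile scaling, 31.2% with no scaling, 4.17% on the spike-in scale and 43.6% with averaged probes. Of all called genes, 65.6%, 59%, 41.7%, 7.51% and 64% were lower under these settings, in the same order. Signal over background limits what dim probes can show, more so on the DTG arrays, where negative controls read 4.46 against 2.85 in Control (log2 signal).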

Other observations

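Slc7a11 is also a known target of ATF4, the transcription factor of the amino acid and integrated stress response, and the list of that response held calls in both directions. Of 10 genes, 4 rose, 3 fell and 3 did not pass (70% called, beside 32.4% of all genes), with a median log2 fold change of 0.37. On the spike-in scale 7 were called higher and 1 lower, beside 33.8% of all genes called higher and 2.74% lower. Trib3, a pseudokinase induced by ATF4, rose by 1.07 (SE 0.13, limma adjusted p = 0.000908), Cth, which makes cysteine from cystathionine, by 0.82, Asns, asparagine synthetase, by 0.57, and Ddit3, the stress factor CHOP, by 0.53. Cbs, which makes cystathionine, fell by 1.72 (SE 0.13, limma adjusted p = 0.000143; -1.25 on the spike-in scale, adjusted p = 0.000595). Phgdh and Psat1, enzymes of serine synthesis, fell by 0.62 and 0.33. Of the transsulfuration enzymes Cbs and Cth, then, the first was lower and the second higher in DTG skin.

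Of 3 keratinocyte genes that overactive NRF2 is known to induce in mouse epidermis, 1 was called higher. Beside it, 32.4% of all genes were called on the scale used, 11.1% as higher. All 3 were called higher on the spike-in scale, beside 33.8% of all genes called higher there and 2.74% lower. Epgn, an epidermal growth factor family ligand, rose by 1.20 (SE 0.18, limma adjusted p = 0.00222). Slpi, a secreted protease inhibitor, read 0.31 and Sprr2d, a cornified envelope protein, 0.15, neither with a call on the scale used.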
